A study of Homo sapiens with 6 samples.

Results

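Polo-like kinases are serine/threonine kinases that act in cell division and in stress responses, and Plk1, Plk2, Plk3 and Plk4 were taken as the genes whose symbol in the deposited count table equals one of these names. All 4 were found among the 22989 genes of the table, and all 4 passed the expression filter that left 13497 genes for testing. The libraries are labelled as RNA of MDA-MB-231 PTX-resistant BCSC, described as breast cancer stem-like cells of a human triple-negative breast cancer line, selected for resistance to paclitaxel (PTX) and sorted for high aldehyde dehydrogenase (ALDH) activity. The 3 LINC00115 KD libraries come from such cells with a short hairpin RNA against the long non-coding RNA LINC00115, and the 3 WT libraries from cells labelled as wild type, so that both groups share the line, the drug resistance and the sort. The labels do not state whether the 3 libraries of a group come from separate cultures, or whether the WT cells carried a control hairpin, and p-values therefore measure only the spread between these libraries.

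The family shares a kinase domain at the N-terminus and polo boxes at the C-terminus, which anchor the kinase to its partners. Plk1 drives entry into mitosis, spindle assembly and cytokinesis, and its transcript accumulates toward G2 and M phase. Plk4 is the kinase that starts the duplication of centrioles. Plk2 and Plk3 were first described as serum- or growth-factor-inducible genes and respond to stress and DNA damage. The study asked about a link from LINC00115 to the methyltransferase SETDB1, to PLK3 and to HIF1α, the oxygen-regulated transcription factor that PLK3 phosphorylates.

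The libraries held 36979221 to 38799331 counts, with 17271 to 18116 genes detected in each, so that Plk1 to Plk4 were read with 1631 to 14361 counts per library. The chi-square per degree of freedom was 3.89 to 7.60 between libraries of the same group, so none repeated another within counting error, and 206 to 226 between the groups. The symbols of the table are in mouse style, with 4650 Gm names followed by a number and 1129 Rik names, and only 16 symbols equal a human symbol as written. Of these mouse-style names, 112 Gm and 165 Rik genes reached 100 counts or more in each of the 6 libraries. These are names of a mouse annotation, while the labels name a human line. The species of the RNA was not tested, so the labelled human line, and with it the species to which each value belongs, remains in doubt. The table holds 0 genes named LINC00115, so the knockdown could not be checked and every direction rests on the group labels. Of 8 genes known to be expressed in MDA-MB-231, all had at least 10 counts in every library, and their summed level was 6667 to 6779 normalized CPM in WT and 7262 to 7401 in LINC00115 KD (CPM, counts scaled to a common library total after TMM normalization, which sets libraries by the bulk of their genes). Much of that sum came from Vim, at 3368 to 3467 normalized CPM in WT and 3645 to 3792 in LINC00115 KD. Egfr, known to be abundant in this line, was low, at 5.34 to 6.15 normalized CPM in WT and 7.71 to 10.8 in LINC00115 KD. Of the 8 expressed genes, 5 lay higher in every LINC00115 KD library than in every WT library and 0 lower. Of 5 genes that are absent or low in this line, 3 lay higher in the same way and 0 lower. Among all tested genes, 37.8% lay higher in this way. The summed level of the 5 genes went from 16.6 to 19.0 in WT to 30.7 to 31.3 normalized CPM in LINC00115 KD. The 3 higher genes were Erbb2 (15.7 to 18.3 and 27.1 to 28.1), Esr1 (0.635 to 0.770 and 2.23 to 2.74) and Cdh1 (0.0265 to 0.0794 and 0.569 to 0.817). Cdh1 had only 1 to 31 counts per library, while Pgr reached at most 3 counts in any library and Epcam 5. The 3 ALDH genes listed for the sort summed to 0.212 to 0.450 normalized CPM in WT and 1.06 to 1.34 in LINC00115 KD, close to absence.

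To show the control regions of the genes under study, the 250 bases before the transcription start of each human gene are given from RefSeq (GRCh38.p14), since the labels name a human line, 5′ to 3′ on the strand of the gene. Matches to 5 short motifs are in capitals, searched on both strands and chosen with these windows in view. The first was TTTGAA, the cell cycle genes homology region (CHR) bound by repressor and activator complexes of the cell cycle. The second was the CCAAT box, a common promoter element. The third was TGACG, the half-site of the cAMP response element, a target of stress and growth signals. The fourth was TATAA, the core of the element that places the transcription start. The fifth was ACGTG, the core of the hypoxia response element to which HIF1α binds. The reads were not counted on these windows, and with the species in doubt the windows may not be those of the genes counted. PLK1 is on the plus strand at chr16:23678639-23678888, PLK2 on the minus strand at chr5:58460087-58460336, PLK3 on the plus strand at chr1:44800127-44800376 and PLK4 on the plus strand at chr4:127880643-127880892, the most upstream of its 3 listed starts.
PLK1: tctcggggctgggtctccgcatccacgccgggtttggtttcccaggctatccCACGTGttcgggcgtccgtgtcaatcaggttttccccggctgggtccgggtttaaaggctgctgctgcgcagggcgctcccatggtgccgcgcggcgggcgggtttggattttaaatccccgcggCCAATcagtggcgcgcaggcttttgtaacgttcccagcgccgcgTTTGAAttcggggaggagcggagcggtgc
PLK2: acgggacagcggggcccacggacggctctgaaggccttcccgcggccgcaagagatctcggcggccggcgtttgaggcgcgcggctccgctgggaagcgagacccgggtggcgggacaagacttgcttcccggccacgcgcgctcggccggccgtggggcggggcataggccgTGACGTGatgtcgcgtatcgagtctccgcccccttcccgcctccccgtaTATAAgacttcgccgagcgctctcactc
PLK3: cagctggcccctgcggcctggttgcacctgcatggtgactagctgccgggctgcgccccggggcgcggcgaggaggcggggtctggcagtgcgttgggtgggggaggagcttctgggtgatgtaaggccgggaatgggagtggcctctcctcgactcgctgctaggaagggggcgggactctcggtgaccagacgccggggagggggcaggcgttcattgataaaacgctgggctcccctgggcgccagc
PLK4: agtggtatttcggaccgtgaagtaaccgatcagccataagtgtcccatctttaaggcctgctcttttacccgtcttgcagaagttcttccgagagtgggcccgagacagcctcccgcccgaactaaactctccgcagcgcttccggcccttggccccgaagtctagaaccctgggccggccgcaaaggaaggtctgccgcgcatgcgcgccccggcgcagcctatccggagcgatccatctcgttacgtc

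The PLK1 window held TTTGAA from 29 to 24 bases before the start, a CCAAT box from 73 to 69 bases before it, and the sequence CACGTG, which contains ACGTG on each strand. Of 35116 windows of the same length listed for all human genes, 13.3% held TTTGAA, 32% the CCAAT box and 18.5% the hypoxia core. The PLK2 window held TATAA from 28 to 24 bases before the start, found in 18.9% of all windows, and TGACG, found in 21.2%, overlapping an ACGTG. The PLK3 and PLK4 windows held none of these letters. A match is only a description of the letters, and no match bears on whether a factor binds there.

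Expression was compared between LINC00115 KD and WT to ask which genes differ between the labelled groups. The family split into a pair that was higher and a pair that was lower in LINC00115 KD. Plk3 rose 3.16-fold and Plk2 rose 1.58-fold, while Plk1 fell by 13.0% and Plk4 fell by 11.5%. All 4 changes passed an adjusted p-value threshold of 0.05 (quasi-likelihood test of edgeR, adjusted by Benjamini-Hochberg across the tested genes), but only that of Plk3 also passed the fold change of 2 that the study's methods require. This contrast moved most of the transcriptome. At the adjusted p threshold alone, 36.7% of all tested genes were lower and 36.7% were higher, and with the fold change of 2 these were 9.98% and 10.2%. A passed test was therefore the common case in this contrast, and the members are described below by the sizes of their changes.

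Plk3, the stress-responsive kinase that acts on HIF1α, had 47.6, 45.1 and 43.2 normalized CPM in the WT libraries and 141.7, 137.4 and 150.8 in the LINC00115 KD libraries. The groups did not overlap, and 89.8 normalized CPM separated the lowest LINC00115 KD library from the highest WT library. The group means ± SD were 45.3 ± 2.23 and 143.3 ± 6.83 normalized CPM (n = 3 each). On the log2 scale Plk3 rose by 1.66 ± 0.05 (SE), with an adjusted p of 1.35e-25 in the quasi-likelihood fit of edgeR. Its 95% interval ran from 2.95-fold to 3.39-fold. Of all tested genes, 94.4% had a lower log2 fold change than Plk3 and 89.9% a smaller one in absolute size.

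Plk2, the other inducible member, had 237.8, 218.8 and 236.2 normalized CPM in the WT libraries and 371.3, 357.8 and 363.2 in the LINC00115 KD libraries. Again all LINC00115 KD libraries lay above all WT libraries, with a gap of 120.0 normalized CPM. The group means ± SD were 230.9 ± 10.5 and 364.1 ± 6.77 normalized CPM (n = 3 each), and the log2 change was 0.66 ± 0.04 (SE), with an adjusted p of 7.81e-18 in the same edgeR fit. The 95% interval, 1.499-fold to 1.658-fold, stayed under the fold change of 2.

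Plk1, the mitotic kinase, had 133.9, 147.5 and 146.9 normalized CPM in the WT libraries and 122.3, 126.4 and 123.6 in the LINC00115 KD libraries. WT replicate 1 was the lowest of its group and still lay 7.46 normalized CPM above the highest LINC00115 KD library. With means ± SD of 142.7 ± 7.66 and 124.1 ± 2.11 normalized CPM (n = 3 each), the log2 change was −0.20 ± 0.04 (SE), with an adjusted p of 6.70e-05 in the edgeR fit. Only 24.3% of tested genes had a smaller change in absolute size, so that Plk1 was among the less affected genes of the contrast.

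Plk4, the centriole kinase, had 109.4, 120.3 and 111.4 normalized CPM in the WT libraries and 99.5, 98.7 and 103.7 in the LINC00115 KD libraries. The groups did not overlap, but only 5.75 normalized CPM separated them, about the SD of the WT group (5.82). Its mean was 113.7 normalized CPM in WT and 100.6 ± 2.67 (SD, n = 3) in LINC00115 KD, and the log2 change was −0.18 ± 0.04 (SE), with an adjusted p of 0.000638 in the edgeR fit. Non-overlapping groups were common in this contrast, with 37.8% of tested genes entirely below and 37.8% entirely above WT in LINC00115 KD. Plk5, a further gene of the family that is no member of the group described here, had 1 count in LINC00115 KD replicate 1 and 0 counts in the other 5 libraries.

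Markers of other tissues differed between the groups as well. Counts of them are to be read beside the 37.8% of tested genes entirely above WT and the 37.8% entirely below. Of 10 lung markers, 10 were higher in every LINC00115 KD library than in every WT library, with a summed level of 20.4 to 28.8 normalized CPM in WT and 110.8 to 123.0 in LINC00115 KD, and 6 of them, Sftpc and Scgb1a1 included, had 0 counts in every WT library. The corresponding sums were 9.24 to 9.64 and 28.0 to 31.7 for 10 kidney markers, of which 8 were higher and 1 lower. Of these 10, 6 also had 0 counts in every WT library. Most of the WT sum came from the lower gene, Cubn, at 8.13 to 8.36 normalized CPM in WT and 5.86 to 6.49 in LINC00115 KD. For 10 leukocyte markers the sums were 35.7 to 35.9 and 99.8 to 111.0 (4 higher and 1 lower), mostly from S100a8, while the pan-leukocyte gene Ptprc stayed at 0.132 to 0.336 normalized CPM in all libraries. For 6 endothelial markers they were 0.768 to 1.30 and 57.1 to 60.0 (3 higher and 1 lower), almost wholly from Cdh5, which lay at 56.2 to 59.1 in LINC00115 KD, while Pecam1 stayed at 0.159 to 0.491. The part of these markers in the levels of the Polo-like kinases and of their pathway genes was not tested.

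**Figure D1:**
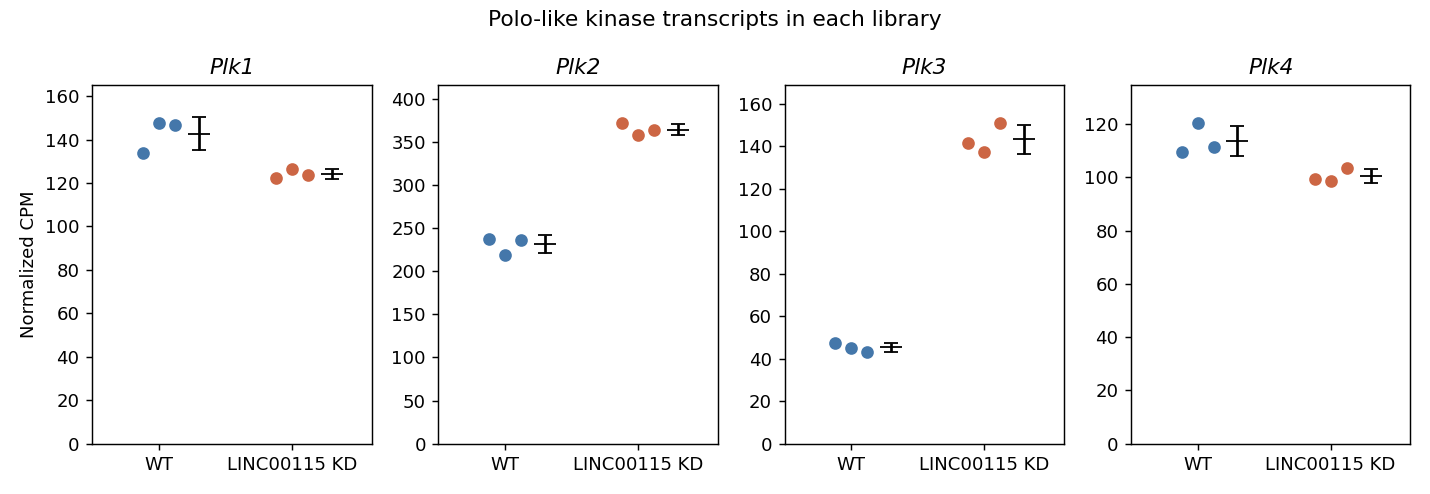
Normalized CPM of Plk1, Plk2, Plk3 and Plk4 in each of the 3 WT (blue) and 3 LINC00115 KD (orange) libraries, with bars for the mean and SD of each group and a separate axis from 0 for each gene. Plk3 moved from 43.2 to 47.6 in WT to 137.4 to 150.8 in LINC00115 KD, whereas the groups of Plk1 and Plk4 were only 7.46 and 5.75 normalized CPM apart.

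**Figure D2:**
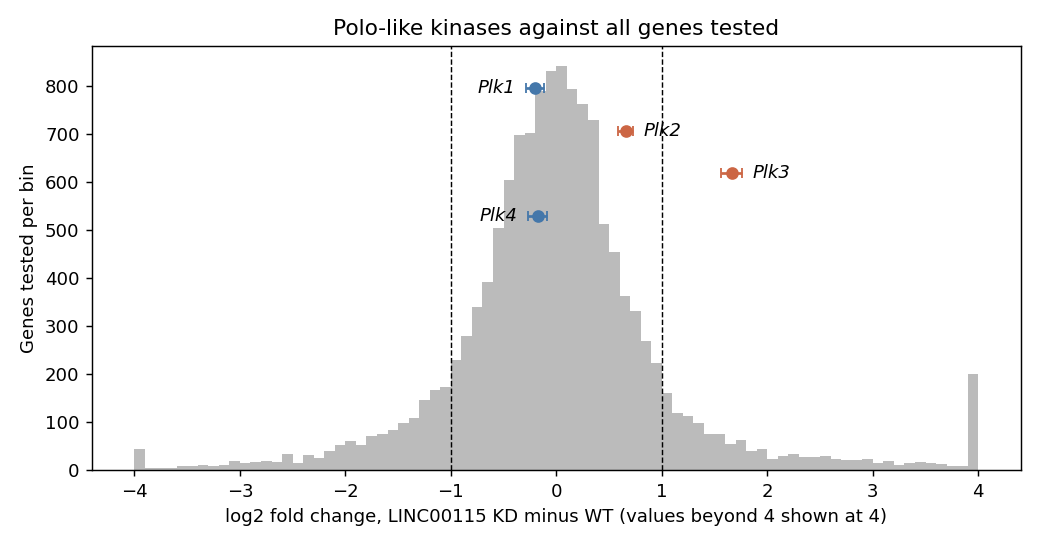
Distribution of log2 fold changes (LINC00115 KD minus WT) over the 13497 genes tested, in grey, with the 4 kinases drawn as points with 95% intervals at arbitrary heights and dashed lines at a fold change of 2. Plk3 at 1.66 lies beyond the line, Plk2 at 0.66 inside it, and Plk1 and Plk4 at −0.20 and −0.18 within the bulk of the genes.

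Ratios of counts between members of the same library do not depend on how libraries are scaled, and were compared to ask whether the kinases moved by different amounts. Because counts also depend on gene length, only the change of a ratio between the groups can be read, not its level. The Plk2/Plk3 count ratio was 4.99, 4.85 and 5.47 in the WT libraries and 2.62, 2.60 and 2.41 in the LINC00115 KD libraries. It fell by 1.004 on the log2 scale, since Plk3 rose more than Plk2, although both were higher. The Plk3/Plk4 count ratio was 0.435, 0.375 and 0.388 in the WT libraries and 1.42, 1.39 and 1.45 in the LINC00115 KD libraries. It was 3.57-fold higher in LINC00115 KD, and the Plk1/Plk3 ratio was 3.63-fold lower.

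The Plk1/Plk2 ratio was 1.81-fold lower and the Plk2/Plk4 ratio 1.78-fold higher in LINC00115 KD. The Plk1/Plk4 count ratio was 1.22, 1.23 and 1.32 in the WT libraries and 1.23, 1.28 and 1.19 in the LINC00115 KD libraries. These groups overlapped, with a difference of −0.02 on the log2 scale that ranged from −0.0520 to 0.0108 when each library was left out in turn and turned positive without WT replicate 3, so no difference between the decreases of Plk1 and Plk4 was detectable. For the other 5 of the 6 pairs the groups did not overlap, each with an exact two-sided permutation p of 0.1 (0.12 after Benjamini-Hochberg adjustment over the 6 pairs), which is the smallest p that 3 libraries against 3 allow. For Plk1/Plk4 the exact permutation p was 0.7.

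**Figure D3:**
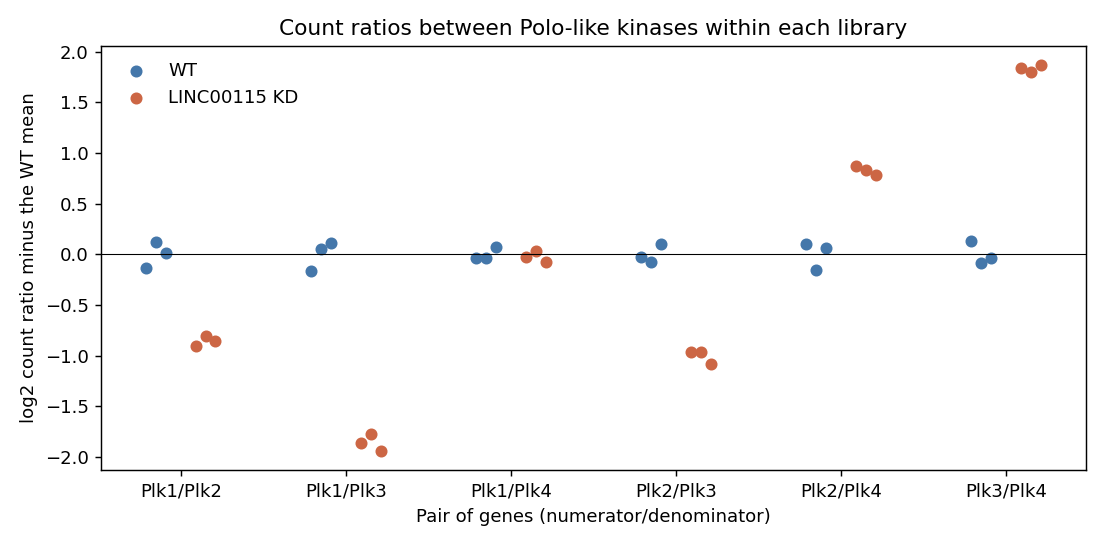
Log2 ratio of counts for the 6 pairs of kinases in each library, after subtraction of the mean of the 3 WT libraries (blue, WT; orange, LINC00115 KD). Plk1/Plk4 overlaps between the groups, with a difference of −0.02, while ratios with Plk3 in them moved by −1.86, −1.004 and 1.84.

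Across the 6 libraries, the log2 levels of Plk2 and Plk3 went together (Pearson r = 0.99), as did those of Plk1 and Plk4 (r = 0.90), and each of the inducible kinases ran opposite to Plk1 and Plk4 (r = −0.93 to −0.87). These coefficients describe 2 clusters of 3 libraries, share the libraries and their scaling, and carry no test. Of 9137 other genes with a mean of at least 10 normalized CPM, 2551 (27.9%) had a correlation over 0.95 with Plk3 and 2357 (25.8%) with Plk2. For Plk1 these were 241 (2.64%) and for Plk4 73 (0.799%). Negative correlations were not counted, and over 2 clusters such counts also depend on how far each kinase differed between the groups. The profile most like that of Plk3 was that of Ywhag, a 14-3-3 protein gene (r = 0.9999), followed by Rapgef3 and Ttc19 (both r = 0.9997). The profiles most like Plk2 were those of Grn (0.9998), Lhfpl2 and Lrrc47. Closest to Plk1 were Atxn1l (0.9987), Mtap and Manf, and closest to Plk4 were Slco4a1 (0.9857), Ndufb3 and Zdhhc3.

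Genes known to act with the family were then described by lists of the regulators, targets and processes of each kinase. Counts of list genes give those at an adjusted p under 0.05 in the same test, to be read against 36.7% lower and 36.7% higher among all genes, and against a median log2 fold change of −0.0061 over all genes. The direction of the lists was not tested. In bulk RNA, fewer cells in a phase of the cell cycle and less RNA per cell cannot be told apart.

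Of 11 regulators of PLK1, 7 were lower, 3 higher and 1 did not pass, with a list median of −0.18, close to the log2 fold change of Plk1 itself. Fzr1, which directs the anaphase-promoting complex to degrade PLK1 at mitotic exit, went from 86.3 ± 4.18 to 60.7 ± 2.52 normalized CPM (mean ± SD of 3 libraries, as for the genes that follow), a log2 fold change of −0.51. Bora, the cofactor with which Aurora A activates PLK1, fell by 0.47 on the log2 scale, to 25.9 ± 0.446 normalized CPM. Aurka, the gene for Aurora A itself, and Foxm1, a transcription factor of the G2 and M genes, were both named here after their values were seen and fell by less, with log2 fold changes of −0.16 and −0.18. Opposite to these, Ccnb1, the mitotic cyclin B1, rose from 202.9 ± 7.55 to 249.3 ± 5.58 normalized CPM (log2 fold change 0.30, adjusted p = 7.53e-09 in edgeR). Ppp1r12a, whose product brings a phosphatase to PLK1, rose by 0.20.

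Of 23 targets and anchors of PLK1, 19 were lower and 2 higher, with a median of −0.44 beside the −0.20 of Plk1 itself. Bub1, a spindle checkpoint kinase that docks PLK1 at kinetochores, fell most, from 311.9 ± 3.01 to 123.2 ± 1.19 normalized CPM, a log2 fold change of −1.34 (adjusted p = 6.84e-27 in edgeR). Kif2c, a microtubule-depolymerising kinesin, fell by 1.05 on the log2 scale. These 2 genes were the only ones of the list past a fold change of 2. Wee1, the inhibitory kinase of CDK1 that PLK1 marks for degradation, went the other way, with 54.6 ± 1.21 normalized CPM in WT and 80.6 ± 2.82 in LINC00115 KD (log2 fold change 0.56). Gtse1, a microtubule-associated regulator of p53, also rose (0.27).

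Genes of G2 and M phase in general gave a like picture, with 21 of 25 lower, 1 higher and a median of −0.35. Cdca3 (log2 fold change −1.23) and Ndc80, a kinetochore subunit (−1.14), fell most. Pttg1, the gene for securin, fell by only 0.15 and lost the call once WT replicate 3 was left out (adjusted p = 0.0526 in edgeR). Cks2, a CDK subunit, was the 1 higher gene (0.11), a call kept under only 3 of 13 alternative settings. Of 21 genes of G1 and S phase, 14 were lower and 6 higher, with a median of −0.20. Among these, Cdc6 (−0.76), which licenses replication origins, and Uhrf1 (−0.72), which maintains DNA methylation, fell most. In contrast, Rrm2, a subunit of ribonucleotide reductase, rose from 148.6 ± 11.03 to 359.2 ± 10.6 normalized CPM (1.27), and Ung, an enzyme that removes uracil from DNA, rose by 0.66.

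For PLK4, 22 genes of centriole duplication were listed, of which 10 were lower, 5 higher and 7 did not pass, with a median of −0.12. Cep97, a cap of the centriole end, fell from 10.2 ± 1.24 to 3.71 ± 0.171 normalized CPM (log2 fold change −1.45), and Cntrob, centrobin of the daughter centriole, from 36.7 ± 2.80 to 16.0 ± 1.24 (−1.20). Cep63, which brings the PLK4 anchor CEP152 to the centriole, rose from 12.9 ± 2.51 to 27.4 ± 1.41 normalized CPM (1.08), and Cep85, a partner of STIL in PLK4 activation, rose by 0.45. Named after their values were seen, Stil, which stimulates PLK4, fell by 0.61 on the log2 scale and Cep192, a further anchor of PLK4, by 0.13, while Cep152 (0.06) and the cartwheel gene Sass6 (0.11) did not pass the threshold.

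A list of 15 genes joined partners of PLK2 and PLK3 with the m6A genes Alkbh5 and Ythdf2, which were listed for their place in the study and are not partners of these kinases. Of 14 tested, 4 were lower and 5 higher, with a median of 0.06, and without the m6A genes 3 of 12 were lower and 4 higher. Hif1a, whose product PLK3 phosphorylates, was higher in LINC00115 KD, with 254.1 ± 5.94 normalized CPM in WT and 334.2 ± 1.68 in LINC00115 KD (log2 fold change 0.40, adjusted p = 1.11e-12 in edgeR). Setdb1, the lysine methyltransferase of interest to this study, fell from 105.7 ± 0.789 to 90.6 ± 2.63 normalized CPM (−0.22). Alkbh5, an m6A demethylase, fell by 0.34 and Ythdf2, an m6A reader, rose by 0.36 on the log2 scale. Chek2, a DNA damage kinase that acts with PLK3, fell most of the list, from 34.2 ± 2.53 to 12.6 ± 0.854 normalized CPM (−1.44), and Tsc1, a brake on mTOR, fell by 0.42. Sipa1l1, which encodes the synaptic PLK2 target SPAR, rose most (0.60). RNA levels do not measure the phosphorylation or methylation of any of these proteins.

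**Figure D4:**
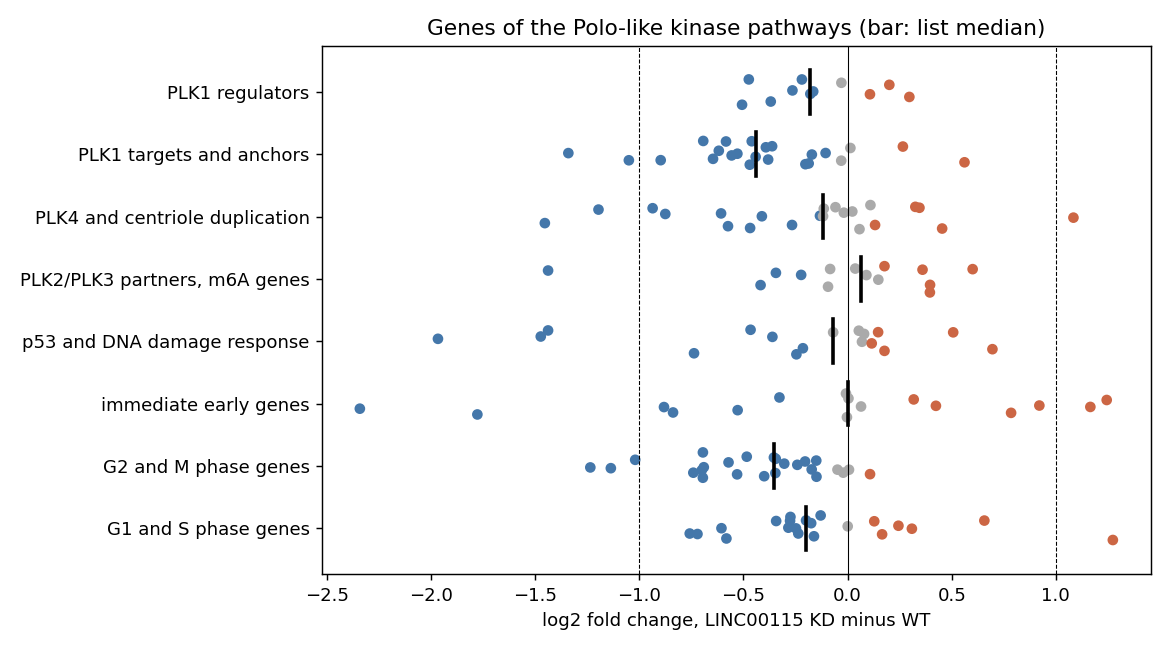
Log2 fold changes (LINC00115 KD minus WT) of the tested genes of 8 lists, with 1 point per gene (blue, lower; orange, higher; grey, adjusted p of 0.05 or more), a black bar at the list median and dashed lines at a fold change of 2. Targets and anchors of PLK1 have a median of −0.44 with 19 of 23 genes lower, whereas immediate early genes spread to both sides around a median of 0.00072.

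Plk2 and Plk3 are known as immediate early and as p53-responsive genes, and both of these lists held genes of either direction. Of 16 immediate early genes, 6 were higher, 6 lower and 4 did not pass, with a median of 0.00072. Atf3, a stress-induced transcription factor, rose from 23.9 ± 0.505 to 56.5 ± 1.73 normalized CPM (log2 fold change 1.24), and Klf6, a zinc finger factor, from 162.6 ± 1.87 to 364.8 ± 3.74 (1.17), and they were the only higher genes of the list past a fold change of 2. In the opposite direction, Egr3, an early growth response factor, fell from 9.35 ± 0.930 to 1.84 ± 0.140 normalized CPM (−2.34) and Ier3, an early response gene linked to survival, from 652.9 ± 6.54 to 190.5 ± 14.0 (−1.78). Fos and Jun, named after their values were seen, had log2 fold changes of 0.0044 ± 0.27 (SE) and −0.0030 ± 0.04 (SE) and did not pass. Fos had a mean of only 2.29 normalized CPM in each group, so its value is imprecise. Also named after their values were seen, Egr1 (0.79) and Myc (0.92) rose, while Junb (−0.53) and Fosb (−0.84) fell.

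Of 18 genes of the p53 and DNA damage response, 17 were tested, of which 8 were lower and 5 higher (3 with upper quartile or library-size scaling, or without WT replicate 2 or 3), with a median of −0.07. Cdkn1a, the CDK inhibitor p21 and a main target of p53, fell from 257.4 ± 20.9 to 65.9 ± 2.49 normalized CPM (log2 fold change −1.97, adjusted p = 3.21e-28 in edgeR). Whether p53 has a part in the levels of Plk2 and Plk3 was not tested. Btg2, an antiproliferative p53 target, fell by 1.47 on the log2 scale. Zmat3 (0.70) and Tnfrsf10b, a death receptor gene (0.51), were the 2 p53 targets that rose most, both under a fold change of 2.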

How the data were processed

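RNA of 3 LINC00115 KD and 3 WT libraries was sequenced by the authors, who trimmed adapters and mapped reads with HISAT2 (hg19 in the methods, hg38 in the submitters' processing notes, which also name featureCounts and DESeq2). The authors deposited raw counts per gene, without normalization. The annotation and strand setting are not given in the sources used here, so reads shared between similar or overlapping genes may be split in unknown ways. For RNA isolation and libraries the methods and the labels name different kits.

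Columns were matched to samples by their description, and 0 columns were unused. In R 4.3.3, genes were filtered by filterByExpr (minimum count 10, minimum total 15), normalized by TMM and tested with the quasi-likelihood test of edgeR 4.0.16, with the group as the only term and Benjamini-Hochberg adjustment. Standard errors are the log2 fold change divided by the root of F. Normalized CPM use TMM-scaled library totals. Count ratios were compared by an exact permutation test (scipy 1.17.1). The pipeline was tested on simulated data.

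The members and lists were chosen with earlier results of these data known. Lists hold 149 genes, 2 of them on more than 1 list. Of each list, the 2 highest and 2 lowest called genes are named where each library of the higher group held 100 counts or more, with Hif1a, Setdb1, Alkbh5 and Ythdf2, and 1 gene counted in the lists is not reported here by name. Similar profiles are the 3 genes with the highest Pearson r on log2(normalized CPM + 1). Alternatives were other scalings (DESeq2 size factors, upper quartile, library size), 2 other filters, each library left out, the replicate number as a block and DESeq2 1.42.0.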

Additional observations from a re-analysis of the deposited data

How the results depend on the processing

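All 4 kinases kept their direction and their side of the adjusted p threshold under the 13 alternatives run for each. On the log2 scale Plk3 lay between 1.62 and 1.70, Plk2 between 0.62 and 0.68, Plk1 between −0.25 and −0.18 and Plk4 between −0.22 and −0.13, with adjusted p-values of at most 1.15e-18, 2.73e-13, 0.00176 and 0.0147 (edgeR's quasi-likelihood test or DESeq2's Wald test). Deviations from the group mean had correlations of 0.0007 to 0.0345 between same-numbered libraries of the groups. Between libraries of different number they were −0.0416 to 0.0181. Such small values cannot decide whether same-numbered libraries share a culture or a batch. With the replicate number as a block, Plk3, Plk2, Plk1 and Plk4 had log2 fold changes of 1.66, 0.66, −0.20 and −0.18. There were 4906 lower and 4932 higher genes against 4960 and 4952. The difference in the Plk1/Plk4 count ratio reversed to 0.0108 without WT replicate 3 and lay between −0.0520 and 0.0108 over the libraries left out.

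Of 208 alternative counts over the lists, 194 were within 1.5 times the value given. The higher genes of the p53 and DNA damage response were 3 instead of 5 with upper quartile or library-size scaling, and 3 to 5 with each library left out (3 without WT replicate 2 or 3). The 1 higher gene of G2 and M phase (Cks2) became 0 with upper quartile scaling, library-size scaling, no low-count filter, the replicate block and DESeq2, and 0 to 1 with each library left out (0 without any one WT replicate or KD replicate 2 or 3). Past a 2-fold change, 903 instead of 1381 genes were higher and 919 instead of 1347 lower with at least 10 counts in every sample. This filter tests fewer genes. Of 36 list genes taken by the naming rule, 34 kept their call throughout and 0 reversed. Depth limits little here, with at least 1631 counts per library for each kinase, and intervals rest on 3 libraries a group.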
